A study of Mus musculus with 23 samples.

Results

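Transcripts of skeletal muscle fibres were measured in the brown adipose tissue (BAT) of 23 mice. The group consists of 39 genes whose products form or fuel the contractile machinery of muscle, and it was chosen by gene symbol from a list drawn up with earlier results of these data known. All 39 symbols were found among the 14651 genes of the table. The levels of these genes in the 23 mice, and the way the levels moved together, were part of what led to the list, so both are given here as a description without a test.

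RNA-seq was done on 6 control and 6 BAT-Mcu-KO mice at room temperature (RT), and on 5 controls and 6 BAT-Mcu-KO animals after 6 h at 4°C. All mice were C57BL/6 males of 8 to 12 weeks. All of them, controls included, were homozygous for an Mcu allele with loxP sites around exon 2 (Mcu[fl/fl]), and BAT-Mcu-KO mice also carried 1 copy of a Ucp1-Cre transgene, whose Ucp1 promoter directs Cre to brown adipocytes. The mice at 4°C were housed alone, without bedding and, according to the general protocol, without food unless stated, so cold cannot be told apart from these conditions. Each sample is the BAT of 1 mouse, and the labels name no batch.

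A muscle fibre shortens when myosin heads of the thick filament pull on the actin of the thin filament, within sarcomeres that are anchored at Z-discs and held in register by titin and desmin. Calcium released from the sarcoplasmic reticulum binds troponin on the thin filament and starts the contraction, and a calcium pump returns it to the store. In the mouse the large interscapular brown fat pad lies against muscles of the back, and brown adipocytes and muscle fibres share an embryonic lineage, but mature brown adipocytes are not known to build sarcomeres.

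The depth was 7129271 to 21006347 reads per mouse over all genes. Mcu, the gene deleted in the BAT-Mcu-KO mice, lay between 70.8 and 136.0 normalized counts (reads divided by the size factor of the library) in the control mice and between 15.2 and 42.4 in the BAT-Mcu-KO mice, so that the genotypes did not overlap. Ucp1, the uncoupling protein that marks brown adipocytes, had 50590.2 to 198043 normalized counts and was abundant in every mouse. The 5 mice described below as nearly without muscle transcripts came from all 4 groups and bore the labels control RT 6, control 4°C 1, control 4°C 3, BAT-Mcu-KO RT 5 and BAT-Mcu-KO 4°C 6.

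Promoters of 4 of the genes are shown because 3 of them, Acta1, Myh4 and Ckm, moved almost in step between mice, while Adssl1 moved least with the others. Each sequence is the 250 bases upstream of the start of the RefSeq transcript on GRCm38.p6, read 5′ to 3′ on the strand of the gene, with matches to an E-box (CANNTG, the core bound by muscle regulatory factors of the MyoD family), a CArG box, a MEF2 site or TATAAA in capitals. Acta1 lies on the minus strand (chr8:123894776-123895025), and Myh4 (chr11:67237562-67237811), Ckm (chr7:19410844-19411093) and Adssl1 (chr12:112619797-112620046) lie on the plus strand.
Acta1: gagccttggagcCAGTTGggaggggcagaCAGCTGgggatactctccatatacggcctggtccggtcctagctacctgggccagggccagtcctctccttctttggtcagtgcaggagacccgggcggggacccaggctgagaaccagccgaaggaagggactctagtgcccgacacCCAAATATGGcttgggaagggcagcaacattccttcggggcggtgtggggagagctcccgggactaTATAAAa
Myh4: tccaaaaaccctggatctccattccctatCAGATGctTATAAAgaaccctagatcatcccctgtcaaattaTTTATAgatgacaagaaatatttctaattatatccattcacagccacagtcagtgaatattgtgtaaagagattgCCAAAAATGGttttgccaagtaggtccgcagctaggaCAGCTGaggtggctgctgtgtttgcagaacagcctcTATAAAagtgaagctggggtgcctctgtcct
Ckm: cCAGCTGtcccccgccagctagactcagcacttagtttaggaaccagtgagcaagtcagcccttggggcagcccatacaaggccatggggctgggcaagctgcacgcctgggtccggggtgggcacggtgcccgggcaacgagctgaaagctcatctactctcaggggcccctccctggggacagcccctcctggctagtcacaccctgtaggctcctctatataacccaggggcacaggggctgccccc
Adssl1: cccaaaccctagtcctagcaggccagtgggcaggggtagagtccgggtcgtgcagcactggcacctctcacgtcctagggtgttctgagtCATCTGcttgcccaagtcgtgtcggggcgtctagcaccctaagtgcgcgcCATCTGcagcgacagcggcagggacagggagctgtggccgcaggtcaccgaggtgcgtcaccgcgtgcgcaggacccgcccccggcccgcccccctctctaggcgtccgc

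RefSeq promoters were found for 30 of the 39 genes, with 35 promoters in all. The letters CAGCTG, which are a subset of CANNTG, occurred in 14 of these 35 promoters, against 13.0% of all 32851 promoters of the same length. Any CANNTG occurred in 77.1% and 66.2%. CArG boxes, bound by serum response factor, occurred in 14.3% and 1.47%, MEF2 sites in 8.57% and 0.51%, and TATAAA in 17.1% and 12.4%. By gene, CAGCTG occurred in 13 and CArG boxes in 4 of the 30, because overlapping promoters of Mb (CAGCTG) and Ldb3 (CArG) were each counted. All motifs were searched on both strands. Acta1 and Myh4 each held CAGCTG, a CArG box and TATAAA, Ckm held 1 CAGCTG, and Adssl1 held 2 E-boxes of other letters and none of the other motifs. A match describes letters only and does not show that a factor binds there.

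The share of reads that fell on the 39 genes differed 58.4-fold between mice, from 0.0152% to 0.887% of the reads of a library. In control mice at RT the lowest, median and highest shares were 0.016%, 0.0508% and 0.119%. The 5 cold control mice had shares of 0.0153%, 0.647%, 0.0176%, 0.221% and 0.610%. BAT-Mcu-KO mice at RT had 0.0152%, 0.335% and 0.887%, and BAT-Mcu-KO mice at 4°C had 0.0165%, 0.0771% and 0.156% (n = 6 each). The lowest mouse of each of the 4 groups was thus at nearly the same level, and the groups overlapped throughout. In each of these lowest mice Des, Myl1 and Adssl1 had the most reads of the 39 genes. In control 4°C 1 they had 711, 145 and 72 of 1093 reads, so the lowest shares mainly show genes that fell less than the others. In bulk RNA, fewer muscle cells and less RNA per muscle cell cannot be told apart. For 8 of the genes (Eno3, Mb, Des, Hspb7, Flnc, Pygm, Lrrc2 and Adssl1), other cells of the fat pad can also express the transcript, and without these 8 the shares ranged more widely, from 0.0034% to 0.812%. Myl1 was kept in these shares. It had more reads than any other kept gene in the lowest mice, 218 in control 4°C 3 (0.0034%) and 145 in control 4°C 1 (0.0035%).

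**Figure D1:**
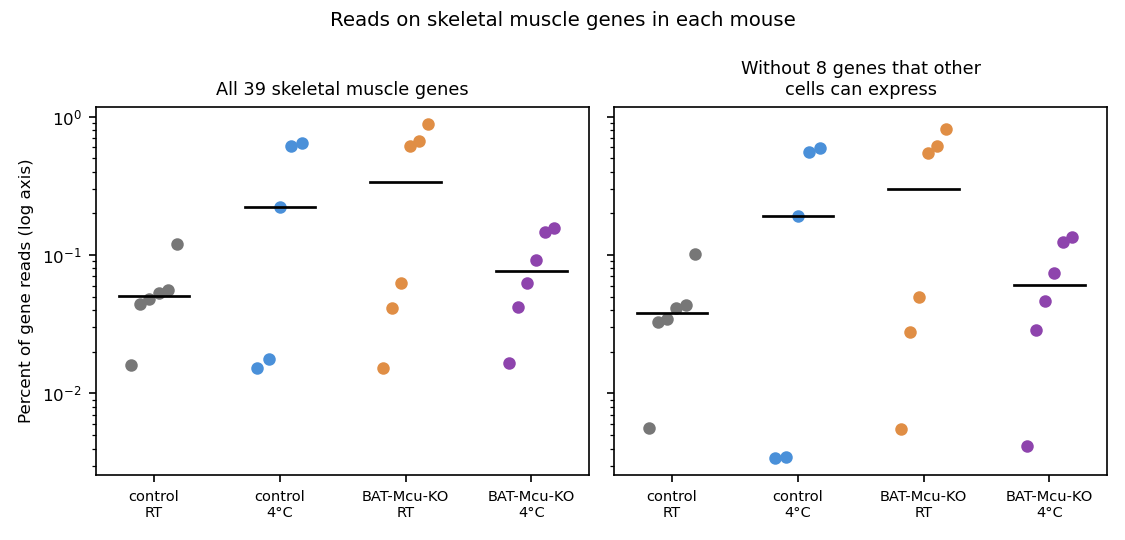
Percent of gene reads (log axis) on all 39 skeletal muscle genes (left) and without 8 genes that other cells can express (right), 1 point per mouse, with a line at the median of each group. The lowest mouse of each group lies between 0.0152% and 0.0165% on the left, and the highest mouse, in the BAT-Mcu-KO group at RT, at 0.887%.

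Among thin filament genes, Acta1, which encodes skeletal muscle actin (GRCm38 chr8:123891769-123894751, minus strand), was the most abundant of the 39 per kb of exon. Its normalized counts in control mice at RT were 7.95 at the lowest, 721 at the median and 2475 at the highest. In the 5 control mice kept in the cold they were 20.2, 12561, 0, 4372 and 10761. In BAT-Mcu-KO mice they were 3.72, 7507 and 19481 at RT, and 20.0, 1156 and 3247 at 4°C. Every group held a mouse at 20.2 or less and a mouse at 2475 or more, so the 4 groups overlapped. Against a floor of 3 reads, the highest mouse was at least 5240.0-fold above the lowest. Tnnt3 and Tnni2, the fast troponins T and I, followed the same course: Tnnt3 had 0 normalized counts in 4 mice and up to 3927, and Tnni2 had 0 in 3 mice and up to 2334. Neb, the giant nebulin that runs along the thin filament, was above the floor in every mouse, from 18.2 to 5188.

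Tnnc2, the calcium-binding subunit of fast troponin, had a mean of 6.496 normalized counts per kb of exon, against 348 for Tnni2 and 562 for Tnnt3. It reached 27.2 normalized counts at the highest, and 14 mice had 3 reads or fewer. In GENCODE M21, 74.0% of its exon bases overlap exons of Ube2c on the other strand. The authors counted reads irrespective of strand, so the reads of such a stretch cannot be given to either gene. Overlap of this kind was smaller in Mb (31.9%), Atp2a1 (21.9%) and Ckm (15.5%), and their levels are uncertain to that degree.

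Among thick filament genes, Myh4, the heavy chain of fast 2B fibres, had 0.993, 301 and 1314 normalized counts at the lowest, median and highest in control mice at RT. The 5 cold control mice had 0, 7089, 0, 1865 and 7148. In BAT-Mcu-KO mice it had 0, 2954 and 9812 at RT, and 9.18, 846 and 2425 at 4°C. The mice that were low in Acta1 were low in Myh4, and the groups overlapped in the same way. Mylpf, the fast regulatory light chain, ranged from 2.02 to 2331. Myl1, the fast essential light chain, behaved differently at the low end: its lowest value in the 23 mice was 271 and its highest 2385, an 8.79-fold range.

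The heavy chains gave the type of fibre. In the 18 mice with at least 100 reads on Myh1, Myh2, Myh4 and Myh7, Myh4 made up 46.8% to 95.1% of the reads per kb, with a median of 84.3%, and it was the largest share in 17 of them. The exception was 1 control mouse at RT, in which Myh1 (2X fibres) made up 48.9% and Myh4 46.8%. Myh2 (2A fibres) made up 0.997% to 8.43%. Myh7, the slow heavy chain, was 9.63% in 1 BAT-Mcu-KO mouse at RT and lower in the others, and that mouse also had the most Myl3, the slow light chain, with 819 normalized counts. The other 5 mice had 0 to 11 reads on these genes, too few to give a share. The 3 fast heavy chains lie side by side on chromosome 11 and share sequence: 48.53%, 39.03% and 35.66% of the 25-base stretches of Myh1, Myh2 and Myh4 occur in other genes, mostly in each other, and the split between them is uncertain to that degree at a read length of 25 bases.

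**Figure D2:**
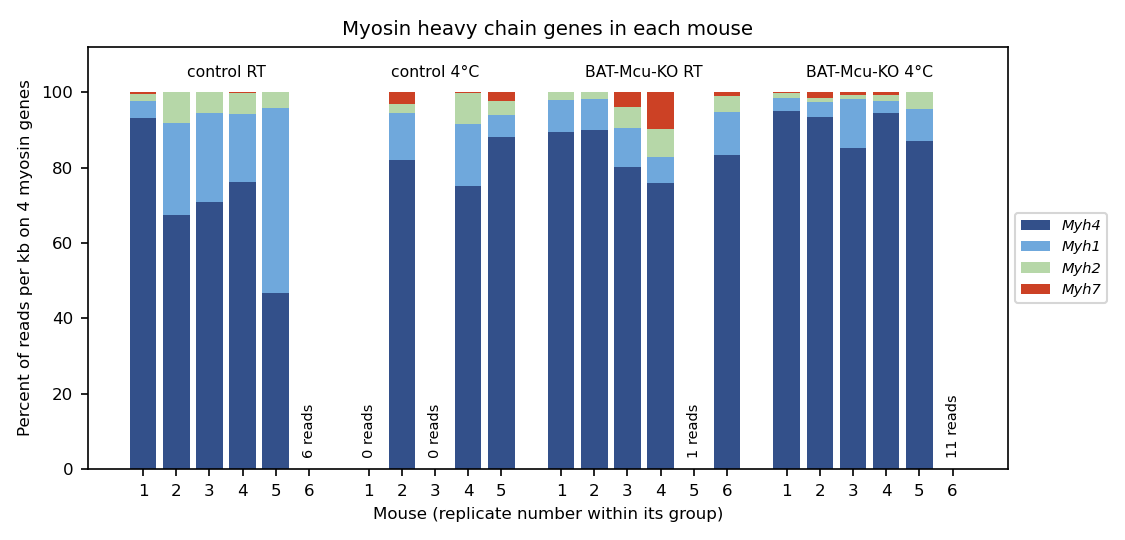
Share of each of 4 myosin heavy chain genes in their summed reads per kb of exon (percent), 1 bar per mouse in its group. Myh4 is the largest part of 17 of the 18 bars, and the 5 mice without a bar had at most 11 reads on these genes.

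Among genes of the Z-disc and of titin, Ttn, the molecular spring titin, had 13.0 to 19619 normalized counts and a range of 1508-fold. Tcap, the telethonin that caps titin at the Z-disc, had 0 in 2 mice and up to 4680.1, and Myoz1, a Z-disc protein of fast fibres, had 0 in 5 mice and up to 1311. Ankrd2, a stress-responsive partner of titin, was low in most mice and reached 360 in 1 BAT-Mcu-KO mouse at RT. Des, the intermediate filament desmin, had the narrowest range of the 39, 3.63-fold.

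The calcium genes repeated the pattern of the filaments. Atp2a1, the calcium pump of fast fibres, had 1.99, 496 and 1946 normalized counts at the lowest, median and highest in control mice at RT. The 5 cold control mice had 4.05, 10447, 0, 3141 and 10404. In BAT-Mcu-KO mice it had 2.79, 4866 and 14882 at RT, and 7.51, 956 and 2592 at 4°C. Its highest mouse was at least 5337-fold above its lowest. Pvalb, the calcium buffer parvalbumin, had 0 in 5 mice and up to 1155, and Casq1, which stores calcium in the reticulum, ranged from 4.97 to 1006. Ryr1, the release channel, had 0 in 3 mice and up to 767. Jph1, the junctophilin that joins the reticulum to the surface membrane, and Sypl2, a synaptophysin-like protein of the same junctions, had narrower ranges, 16.9 to 119 and 1.94 to 42.5 normalized counts.

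Of the genes for energy and oxygen supply, Ckm, the muscle creatine kinase, had 0 in 4 mice and up to 5811 normalized counts. Eno3, the muscle enolase, ranged from 26.7 to 2339, and Mb, the oxygen carrier myoglobin, from 9.96 to 1923. Adssl1, an adenylosuccinate synthase of the purine nucleotide cycle, ranged only from 126 to 820 (6.53-fold). Lrrc2, a leucine-rich repeat protein expressed in heart and skeletal muscle, was near the floor, with 3 reads or fewer in 13 mice and 103.2 normalized counts at the highest.

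Over the whole list, 22 genes had 0 reads in at least 1 mouse, 25 had 3 reads or fewer in at least 1 mouse, and 14 were above 3 reads in every mouse. By mouse, 5 mice had 16 to 21 of the 39 genes above 3 reads, and the other 18 had 33 to 39.

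**Figure D3:**
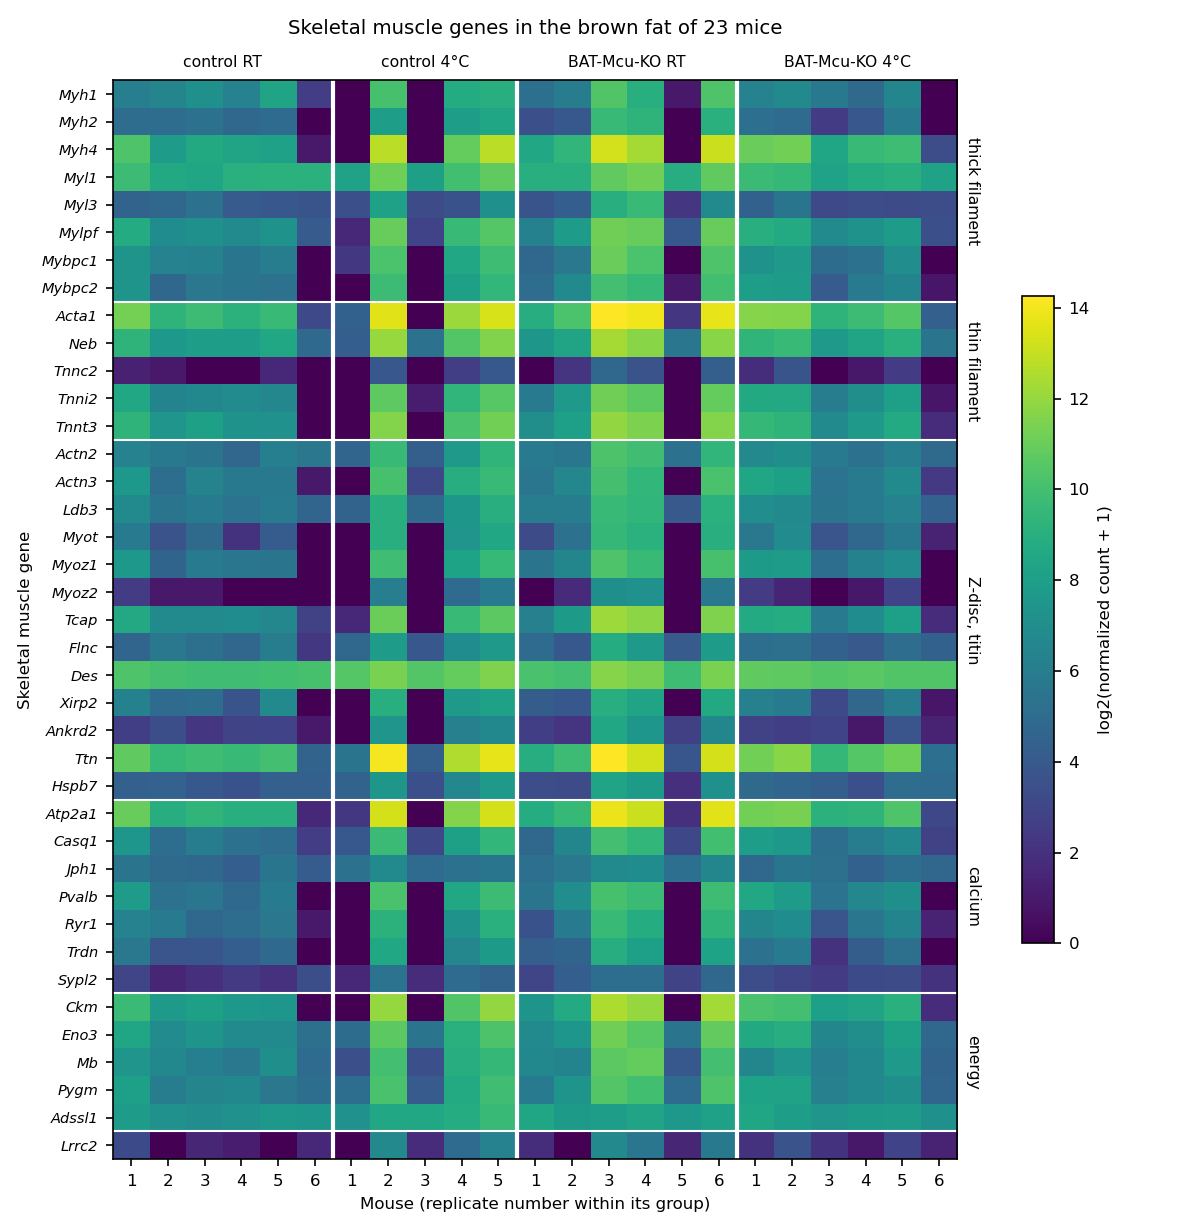
Level of each of the 39 skeletal muscle genes (rows, by role) in each of 23 mice (columns, by group), as log2(normalized count + 1). In 5 columns from all 4 groups 16 to 21 of the 39 genes are above 3 reads, against 33 to 39 in the other 18, and Des, Adssl1 and Myl1 stay above 100 normalized counts in every column.

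The spread between mice of the same group was wide. The standard deviation (SD) of log2(normalized count + 1) around the group means had a median of 2.89 over the 39 genes, against 0.323 over all 14651 genes. Of the 39, 33 were among the 1% of genes (147) with the widest spread and 35 among the widest 5%. The 4 outside were Des (SD 0.50), Adssl1 (SD 0.52), Jph1 (SD 0.63) and Myl1 (SD 0.95).

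The genes varied together. After subtraction of the group means, the Pearson correlation of a gene with the mean of the other 38 over the 23 mice had a median of 0.978. It was over 0.9 for 27 genes and over 0.8 for 35. The highest values were those of Ryr1 (0.992), Neb (0.991) and Tcap (0.990), and the lowest those of Adssl1 (0.615), Jph1 (0.730) and Sypl2 (0.787). The 741 pairs had a median correlation of 0.894. Within single groups the median over pairs was 0.753 in control mice at RT and 0.982 in the cold controls. In BAT-Mcu-KO animals it was 0.949 at RT and 0.870 in the cold. The value for control mice at RT is over 38 genes, without Tnnc2, which had 3 reads or fewer in every mouse there. The points of such a correlation share the library and its depth, and no test was made.

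**Figure D4:**
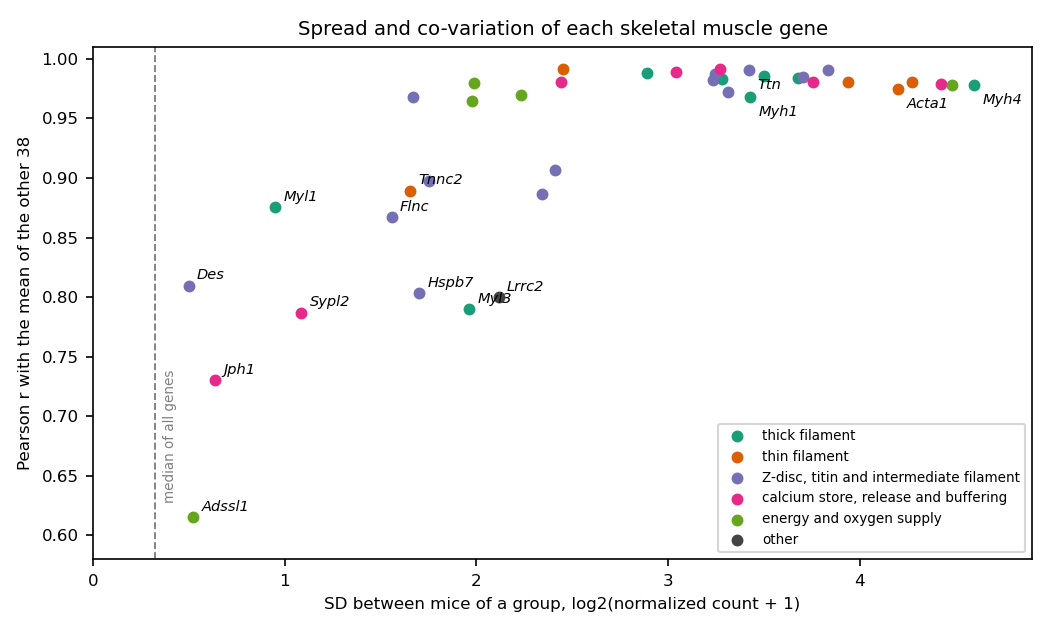
Spread between mice of a group (SD on the log2 scale, x axis) and Pearson correlation with the mean of the other 38 genes (y axis) for each of the 39 genes, coloured by role, with the median SD of all genes as a dashed line. Adssl1, Jph1 and Des sit at the lower left, and Myh4 and Acta1 at the right with correlations over 0.97.

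The genes outside the list with the most similar pattern were largely muscle genes as well. Among the 10 with the highest correlation with the mean of the 39 were Klhl31 (0.996), Ckmt2, the mitochondrial creatine kinase of muscle (0.992), Mylk4 (0.989), Myom2, a protein of the M-band (0.989), Mylk2, the myosin light chain kinase of skeletal muscle (0.985), Art1 (0.984), Apobec2 (0.983), Klhl41 (0.982) and Cox6a2, a cytochrome oxidase subunit of heart and skeletal muscle (0.981). Of the 14612 genes outside the list, 61 had a correlation over 0.9 and 122 over 0.8, and the median was -0.01. The lowest were Gm21092 (-0.74), RP24-409N2.3 (-0.71) and Gm37297 (-0.69). Of 53 measured genes of a further list of skeletal muscle genes, 40 were over 0.8, with a median of 0.926, and the slow fibre list (9 measured of 10) had a median of 0.787.

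Markers of other cells had lower correlations with the mean of the 39. The median was -0.17 for 12 brown adipocyte genes (of which Ucp1 had -0.27), 0.153 for 9 smooth muscle genes (Synpo2, which is also found at Z-discs, had 0.8004) and -0.15 for 7 genes of myelinating Schwann cells. Of 11 cardiac genes, 4 were measured, with a median of 0.116, and the highest of them, Actc1 (0.794), is also made in skeletal muscle, with 3 reads or fewer in 11 mice. Of 11 regulators of muscle precursors and satellite cells, 3 were measured, among them Myf6 (0.928), which mature fibres express, and Mef2c (0.852). Pax7, Myf5, Myod1 and Myog were not analysed here.

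Whether the level of muscle transcripts went with the deleted gene, with the thermogenic marker or with depth was tested for Acta1. On the log2 scale and as deviations from the group means, 4 relations were computed, each with 100000 permutations of the mice within their groups. With Mcu over 23 mice Acta1 had Pearson's r = -0.08 (permutation p = 0.754, adjusted 0.754) and Spearman's rho = 0.0138 (permutation p = 0.957, adjusted 0.957). Within the 12 BAT-Mcu-KO animals it had r = -0.32 (permutation p = 0.394, adjusted 0.526) and Spearman's rho = -0.028 (permutation p = 0.947, adjusted 0.957). With Ucp1 it had r = -0.24 (permutation p = 0.392, adjusted 0.526) and Spearman's rho = -0.32 (permutation p = 0.217, adjusted 0.435), and with log2 depth r = 0.283 (permutation p = 0.305, adjusted 0.526) and Spearman's rho = 0.354 (permutation p = 0.154, adjusted 0.435). None of the 4 passed the threshold of 0.05. Each relation was computed again without the 2 mice farthest from the median of Acta1, taken as a deviation from the group mean. Then r became 0.148 for Mcu in all mice, -0.18 for Mcu in BAT-Mcu-KO mice, -0.25 for Ucp1 and 0.360 for depth.

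The design asks what loss of Mcu does at each temperature and what cold does in each genotype. The test was limma on log2(normalized count + 1) over all 14651 genes and all 23 mice, and a gene was called at a Benjamini-Hochberg adjusted p under 0.05 over all of them. Between genotypes at RT, 0 of the 39 muscle genes were called, against 0.0478% of all genes, and 9 had an unadjusted p under 0.05, against 5.15% of all genes. All 39 estimates were above 0, against 50.2% of all genes, and their median log2 fold change (BAT-Mcu-KO over control) was 1.81, against 0.00 over all genes. For Acta1 the estimate was 1.82 ± 2.10 (SE), and the smallest adjusted p among the 39 was 0.701. The median ranged from 1.09 without control RT 6 to 2.75 without BAT-Mcu-KO RT 5. All 39 genes overlapped between the 2 groups, as did all but 0.218% of the genes of the table. The genes share their mice and moved together within groups, so the 39 estimates are not 39 separate observations.

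Between genotypes at 4°C, 0 of the 39 genes were called, against 0.0751% of all genes, and 1 had an unadjusted p under 0.05 (Adssl1), against 6.98% of all genes. The median log2 fold change was -0.56, against 0.01 over all genes, and 12 estimates were above 0, against 51.2% of all genes. The median turned to 0.21 without control 4°C 2 and to 0.06 without control 4°C 5. All 39 genes overlapped between the groups, against 0.683% of all genes that did not.

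Cold in control mice gave 2 calls of 39 and both were higher at 4°C, against 22.3% of all genes called higher. Adssl1 had 126, 164 and 237 normalized counts at the lowest, median and highest at RT, and 146, 370, 357, 449 and 820 at 4°C. Of the 5 cold mice 4 were above the highest mouse at RT. Its log2 fold change was 1.14 ± 0.28 (SE) with a limma adjusted p of 0.00171. Des had 957, 1024 and 1310 at RT, and 1438, 2663, 1400.1, 1867 and 2883 at 4°C. It was the only 1 of the 39 genes whose groups did not overlap (2.56%), against 25.2% of all genes. Its log2 fold change was 0.89 ± 0.27 (SE) with a limma adjusted p of 0.00754. The mouse labelled control 4°C 3, which had 0 reads of Acta1, was above every control mouse at RT in both genes. In control 4°C 1, with 20.2 normalized counts of Acta1, Des (1438) was above them too, but Adssl1 (146) was below their median. Both genes were highest in control 4°C 5, which had 10761 normalized counts of Acta1. Whether either gene changed apart from the level of muscle transcripts was not tested. Over the 39 genes the median was 0.84, against -0.02 over all genes, and 36 estimates were above 0, against 48.7% of all genes. An unadjusted p under 0.05 was found for 6 of the 39, against 52.4% of all genes. Without control 4°C 2 the median was -0.01. Single mice left out gave other medians and calls. The calls rose to 8 without control 4°C 3 and to 5 without control 4°C 1, and Adssl1 and Des were among the calls whichever mouse was left out.

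Cold in BAT-Mcu-KO mice gave 1 call of 39, lower at 4°C, against 21.9% of all genes called lower. Jph1 had 35.3, 70.7 and 119 normalized counts at the lowest, median and highest at RT, and 20.1, 29.9 and 45.6 at 4°C. The groups overlapped, and the 3 highest mice at RT (90.8, 114 and 119) were the same 3 that had the most Acta1. Its log2 fold change was -1.10 ± 0.34 (SE) with a limma adjusted p of 0.0101. The median over the 39 genes was -1.29, against -0.02 over all genes, and 0 estimates were above 0, against 48.4% of all genes. An unadjusted p under 0.05 was found for 5 of the 39, against 49.9% of all genes. No gene of the 39 had groups without overlap, against 24.2% of all genes. The calls rose to 8 without BAT-Mcu-KO RT 5, to 6 without BAT-Mcu-KO RT 1, to 4 without BAT-Mcu-KO RT 2 and to 2 without control 4°C 1, with Jph1 among them each time. With only the genes of a mean normalized count of 50 or more tested, Jph1 was not tested and 0 were called. The comparisons within a genotype and those within a temperature share their groups, so their estimates are not independent of each other.

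The interaction, the effect of cold in BAT-Mcu-KO mice minus that in control mice, called 0 of the 39 genes and 0 of all 14651 genes (0.0%) by limma. Of the 39 genes 11 had an unadjusted p under 0.05, against 5.99% of all genes. The 39 estimates were below 0, while 52.0% of all estimates were above it. They ran from -5.00 to -0.43 with a median of -2.24, against 0.01 over all genes. The smallest adjusted p was 0.700, and the lowest unadjusted values were those of Jph1 (estimate -1.87 ± 0.49, SE) and Adssl1 (-1.41 ± 0.39, SE).

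The number of calls turned on the tool. On the reads recovered from the normalized counts, DESeq2 called 0 of the 39 genes between genotypes at RT, against 0.137% of all genes, and 35 had an unadjusted p under 0.05, against 6.16% of all genes. At 4°C it called 0, against 0.163%, with 14 at an unadjusted p under 0.05, against 7.25%. With cold it called 18 in control mice, all higher, against 23.3% of all genes called higher, and 17 in BAT-Mcu-KO mice, all lower, against 23.1% called lower. In the interaction it called 11, all lower, against 0.167% called lower, and all 39 had an unadjusted p under 0.05, against 7.3% of all genes. Tnnc2 had no adjusted p from DESeq2 for genotype at 4°C and for the interaction. The quasi-likelihood test of edgeR called 0 between genotypes at RT, against 0.0478% of all genes, and 0 at 4°C, against 0.041%, with 39 and 20 of the 39 at an unadjusted p under 0.05, against 6.06% and 7.31% of all genes. With cold it called 24 in control mice, all higher, against 23.1% of all genes called higher, and 20 in BAT-Mcu-KO mice, all lower, against 23% called lower (3371 of 14651). In the interaction edgeR called 0 of all genes, and all 39 had an unadjusted p under 0.05, against 7.17%. The medians of the 5 comparisons were 2.98, -1.94, 2.63, -2.30 and -4.91 with DESeq2. Both tools compare means of counts, while limma compares means of logarithms. The direction of the median was the same with the 3 tools in each comparison, but for genotype at 4°C and cold in control mice it turned when single mice were left out, as given above.

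By role, the Z-disc and titin genes held the widest set of estimates in the interaction, from -5.00 for Myoz2 to -1.07 for Des, with a median of -2.51 over 13 genes. The 5 thin filament genes had a median of -1.67, the 8 thick filament genes -1.95, the 7 calcium genes -1.88 and the 5 genes of energy and oxygen supply -2.30. In every role the medians were above 0 for genotype at RT and below 0 for cold in BAT-Mcu-KO mice. Of 53 further skeletal muscle genes, limma called 4 higher and 2 lower with cold in control mice and 1 higher and 5 lower with cold in BAT-Mcu-KO mice, and 0 between genotypes at either temperature. Counts of the 9 slow fibre genes were 1 higher with cold in control mice, and 1 higher and 2 lower with cold in BAT-Mcu-KO mice. Over all 14651 genes limma called 3269 higher and 3466 lower with cold in control mice. With cold in BAT-Mcu-KO mice it called 3136 higher and 3213 lower. Between genotypes it called 7 at RT and 11 at 4°C.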

How the data were processed

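BAT of 23 mice was sequenced from libraries of the Smart-seq2 protocol, which amplifies full-length cDNA. Per the labels and the methods of the study, reads of 25 bases from both ends were aligned by the authors to mm10 with STAR (version 2.4.0j) and GENCODE M7, HTSeq counted unique reads on exons without regard to strand, and genes were kept that reached 8 reads in 6 or more samples. The deposited signal is the normalized count of each gene, which the authors obtained by dividing its reads by a DESeq2 size factor for each library. A further deposited file holds the authors' fold changes and p-values and was not used. Of the values, 100.0% were whole multiples of what 1 read is worth, within 0.1 of a read, so the reads could be recovered. Spreadsheet dates had replaced 19 symbols, and those genes were tested but not named.

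The members, the marker lists and the tests were chosen with earlier results of these data known. limma (version 3.58.1, in R version 4.3.3) was fitted to log2(normalized count + 1), a mean for each group, all mice and a variance trend, with Benjamini-Hochberg adjustment over 14651 genes. Levels are given for up to 3 of the most abundant genes per kb in each role, every gene called, the 3 widest and 3 narrowest ranges, the 3 highest and 3 lowest correlations, and Myh1, Myh2 and Myh4. Ttn, Ankrd2, Myl3, Tnnc2, Myoz2, Actc1, Synpo2, Myf6 and Mef2c were named after their values were seen. Alternatives were DESeq2 (version 1.42.0) and edgeR (version 4.0.16) on the recovered reads, other pseudocounts, filters, scalings and fits, a replicate block and each mouse left out. The fits were tested on simulated counts with the same dispersion (spread beyond counting error) in every gene. That test does not show how the fits behave for genes with a spread as wide as that of the muscle genes. Some genes are not reported here. Exons were taken from GENCODE M21 on GRCm38 and promoters from RefSeq. pandas (version 2.3.3) in Python (version 3.11.15) read the tables and matplotlib (version 3.10.9) drew the plots. Each replicate is a separate mouse. PCR copies are not independent molecules, so read numbers give counting error only.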

Additional observations from a re-analysis of the deposited data

Results flagged for a closer look

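The levels below helped to choose the genes, so they are given as a description with no test. In 19 of 96 sets of values (23 named genes and the share of reads, in 4 groups of mice), the gap from 1 mouse to the next was a larger part of the range of its group than Dixon's 95% critical value. That value served only to pick what is listed, and chance would pick about 1 in 20 of such sets. The genes move together, so the 19 are not independent. Each was a low value, given here as log2(normalized count + 1). In control RT 6 these were Myh4 1.00 (next mouse 7.86), Acta1 3.16 (next mouse 9.15), Tnnt3 0 (next mouse 7.24), Tnni2 0 (next mouse 6.45), Tcap 2.80 (next mouse 6.60), Atp2a1 1.58 (next mouse 8.91), Ckm 0 (next mouse 7.49), Ryr1 1.00 (next mouse 4.78) and Myh2 0 (next mouse 4.82). In BAT-Mcu-KO RT 5 these were Myh4 0 (next mouse 8.54). In BAT-Mcu-KO 4°C 6 these were Myh4 3.35 (next mouse 8.38), Acta1 4.39 (next mouse 9.26), Tnnt3 1.81 (next mouse 6.80), Tnni2 0.88 (next mouse 5.98), Myoz1 0 (next mouse 5.18), Atp2a1 3.09 (next mouse 9.14), Pvalb 0 (next mouse 5.41), Ckm 1.81 (next mouse 8.06) and Myh1 0 (next mouse 4.92). The rule picked no mouse in the control group at 4°C. There control 4°C 1 and control 4°C 3 were both low in most of the genes (Acta1 20.2 and 0 normalized counts). A gap to the next mouse can hardly pick out either of them, so this does not show that no mouse deviated. The share of reads on the 39 genes was taken in percent, without logarithms, and no mouse was picked in any group. On that scale low values lie close together, so this outcome cannot be set beside those on the log2 scale.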

How the results depend on the processing

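The tests called 2 muscle genes for cold in control mice and 1 for cold in BAT-Mcu-KO mice. With a pseudocount of 10 the calls were 4 and 4, with the fit restricted to the groups compared 4 and 3, with quantile normalization 6 and 1, with only genes of a mean normalized count of 50 or more 2 and 0, with DESeq2 18 and 17 and with edgeR 24 and 20, and DESeq2 called 11 in the interaction. With each mouse left out in turn they ranged from 2 to 8 and from 1 to 8, and were 0 in the other 3 comparisons. With a pseudocount of 0.5, a minimum of 8 in every sample, scaling to the 75th percentile, trimmed mean of M-values (TMM) scaling without the muscle genes, no variance trend or robust empirical Bayes they were 2 and 1. Mice with the same replicate number are different animals, and the labels do not say that the numbers pair them. The correlations of the deviations of such mice ranged from -0.20 to 0.22. Low correlations cannot show that mice of the same number had nothing in common. With the replicate block the calls were 2 and 1, for the same 3 genes. The median log2 fold change was 1.81, -0.56, 0.84, -1.29 and -2.24 with limma, for the genotypes at RT and then at 4°C, for cold in controls and then in BAT-Mcu-KO mice, and for the interaction. It was 2.98, -1.94, 2.63, -2.30 and -4.91 with DESeq2 and 2.96, -1.94, 2.63, -2.29 and -4.90 with edgeR, in the same order.

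Estimates of named genes that changed sign follow, with no adjusted p under 0.05 at the changed sign. For genotype at 4°C these log2 fold changes were with a pseudocount of 10 Mylpf -0.38, Tnnt3 -0.29, Tnni2 -0.47, Tcap -0.58, Myoz1 -0.55, Pvalb -0.49 and Ryr1 -0.77. They were with quantile normalization Mylpf -0.075, Tnni2 -0.11, Tcap -0.11, Myoz1 -0.16, Pvalb -0.086 and Ryr1 -0.27. They were with DESeq2 Mylpf -1.85, Myh4 -1.56, Acta1 -1.84, Tnnt3 -1.94, Tnni2 -1.88, Tcap -2.05, Myoz1 -1.81, Atp2a1 -1.95, Pvalb -1.76, Ckm -1.78 and Ryr1 -2.07. They were with edgeR Mylpf -1.86, Myh4 -1.57, Acta1 -1.85, Tnnt3 -1.94, Tnni2 -1.87, Tcap -2.05, Myoz1 -1.81, Atp2a1 -1.96, Pvalb -1.75, Ckm -1.79 and Ryr1 -2.06. For cold in control mice these log2 fold changes were with the replicate block Mylpf -0.010, Tnnt3 -0.54, Tnni2 -0.050, Tcap -0.18, Atp2a1 -0.59 and Ckm -0.52. They were with a pseudocount of 10 Myh4 0.79, Acta1 0.57 and Myh1 0.43. They were with quantile normalization Myh4 0.21 and Acta1 0.12. They were with DESeq2 Myh4 2.92, Acta1 2.63 and Myh1 1.82. They were with edgeR Myh4 2.92, Acta1 2.63 and Myh1 1.84. They were with a pseudocount of 0.5 Tnnt3 -0.19, Tcap -0.060, Atp2a1 -0.17 and Ckm -0.12. They were with scaling to the 75th percentile Tnnt3 -0.028 and Atp2a1 -0.071. For the interaction these log2 fold changes were with a pseudocount of 0.5 Myh4 0.056. They were with the replicate block Myh4 0.13. Leaving out each mouse in turn also changed signs. For genotype at 4°C the ranges were Mylpf -1.32 to 1.02, Myh4 -0.21 to 2.99, Acta1 -1.35 to 2.06, Tnnt3 -0.95 to 1.96, Tnni2 -1.41 to 1.31, Tcap -1.54 to 1.23, Myoz1 -1.26 to 1.25, Atp2a1 -1.09 to 2.24, Pvalb -1.22 to 1.38, Ckm -0.69 to 2.32, Mb -1.46 to 0.18, Neb -1.60 to 0.35, Ryr1 -1.27 to 1.02 and Myh1 -1.92 to 0.61. For cold in control mice the ranges were Mylpf -0.70 to 1.64, Myh4 -1.48 to 1.72, Acta1 -1.25 to 2.15, Tnnt3 -1.27 to 1.69, Tnni2 -0.66 to 2.10, Tcap -0.95 to 1.82, Myoz1 -0.42 to 2.05, Atp2a1 -1.29 to 2.05, Pvalb -0.36 to 2.18, Ckm -1.25 to 1.82, Mb -0.020 to 1.62, Ryr1 -0.68 to 1.61, Myh1 -1.73 to 0.81 and Myh2 -0.23 to 1.88. For cold in BAT-Mcu-KO mice the ranges were Myh4 -2.42 to 0.58, Acta1 -2.68 to 0.0091, Tnnt3 -2.72 to 0.046, Des -0.36 to 0.012, Atp2a1 -2.73 to 0.11, Pvalb -2.53 to 0.054 and Ckm -2.68 to 0.30. For the interaction the ranges were Myh4 -2.32 to 0.95, Acta1 -3.17 to 0.23, Tnnt3 -2.77 to 0.22, Atp2a1 -3.13 to 0.21 and Ckm -2.79 to 0.33. Acta1 against Mcu in all mice had r from -0.19 to 0.084. The cause of these changes was not tested. The median correlation with the other genes lay between 0.965 and 0.981 under all alternatives run. The median share of reads per group lay between 0.0381% and 0.299% without the 8 genes.

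The SD of Acta1 around the group means was 4.202 on the log2 scale. With 5 or 6 mice a group, the smallest SE of a difference was 2.10 in limma, which draws the variance of each gene toward a trend over all genes. A difference must be well above its SE to be called, so differences of that size in Acta1, and somewhat larger ones, were not detectable. The floor of 3 reads covers counting error only.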

Other observations

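The 28 genes that DESeq2 called in the interaction, out of 13798 with an adjusted p, were named after their values were seen. Of the 28, 11 (39.3%) belong to the 39 muscle genes, which make up 0.266% of the table: Ankrd2, Actn2, Sypl2, Adssl1, Jph1, Myl3, Lrrc2, Hspb7, Flnc, Myoz2 and Ldb3. The 39 were chosen with earlier results of these data known, so these percentages are a description and not a test. For the other 17 called genes, the correlation with the mean of the muscle genes was taken across the mice after subtraction of group means. It was over 0.8 for 3 of the 17, and for 122 of all 14612 genes outside the list. Over 0.5 there were 10 of the 17, but the number among all genes was not computed. Among the 10 were the slow troponins Tnnc1 (0.799) and Tnnt1 (0.713), the peptidylarginine deiminase Padi2 (0.887) and the Z-disc protein Pdlim5 (0.767). The correlation was low for Egr1 (0.162), an immediate early gene, and for Mthfd2 (0.202), a mitochondrial enzyme of folate metabolism. limma and edgeR called 0 genes in the interaction, with 878 and 1051 genes at an unadjusted p under 0.05.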
